A study of Mus musculus with 3 samples.

Results

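The genes described here encode 35 proteins of the mouse lysosome: proteases, glycosidases, sulfatases, proteins that handle lipids, and proteins of the lysosomal membrane. They were taken by name, and the list was drawn up with earlier results of these data known. All probe sets whose only gene symbol in the platform annotation was one of these names were taken, which gave 78 probe sets for 34 of the 35 genes, out of 18193 genes measured in this way. The tetraspanin gene Cd63 was not analysed here. Expression was measured in whole embryos at 8.5 days post coitum on 3 Affymetrix arrays, each hybridised with RNA of pooled litter mates of mixed sex. A single array of 6 C57Bl/6J embryos made up the normal group. The 2 mutant arrays held pools of 8 and 6 embryos. The mutant embryos were Dnmt3l-/+ on a C57Bl/6J background and had a Dnmt3l-/- mother and a wildtype father. Oocytes need Dnmt3l, a partner protein of DNA methyltransferases, to place methylation on maternally imprinted domains, and the comparison asks how these transcripts differ in embryos that lack that maternal methylation. With pools of whole embryos, a gene's signal is an average over all tissues, and more cells of a type cannot be told apart from more RNA per cell.

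Lysosomes are acidic organelles that digest proteins, polysaccharides and lipids brought in by endocytosis or autophagy. Most of their soluble enzymes are tagged with mannose 6-phosphate in the Golgi and delivered by mannose 6-phosphate receptors, while membrane proteins such as Lamp1 carry sorting signals in their cytosolic tails. In the early mouse conceptus the visceral endoderm of the yolk sac is known for heavy endocytosis and large lysosomal vacuoles, in which maternal proteins are broken down to feed the embryo.

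Transcription factors of the TFEB family activate many lysosomal genes through an E-box whose core is CACGTG, so the promoter windows of the members were searched for these letters. The windows run from 250 bases before to 50 bases after each RefSeq start, in build GRCm38.p6, and the core reads the same on both strands. Of the 35 genes, 30 had at least 1 window (33 windows in all). The core was in a window of 11 of these 30 genes (36.7%), against 11.4% of 10419 genes that were kept on the arrays and had a window, and 8.09% of all 27025 genes with a window. The longer form with T before and A after the core, which overlaps it, was in windows of 4 members (13.3%), against 2.08% and 1.12%. The 7 sequences that follow show the core in capitals, written 5′ to 3′ on the strand of the gene, with 12 bases on each side. Lgmn and Ctsl are shown because they rose in the mutants, Ctsa, Ctsd, Gla and Mcoln1 because they hold the longer form, and Lamp1 because its window holds the core 4 times.
Lgmn, chr12:102439124-102439153, minus strand: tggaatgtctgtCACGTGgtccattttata
Ctsl, chr13:64370739-64370768, minus strand: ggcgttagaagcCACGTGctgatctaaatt
Ctsa, chr2:164833749-164833778, plus strand: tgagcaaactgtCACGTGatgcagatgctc
Ctsd, chr7:142387908-142387937, minus strand: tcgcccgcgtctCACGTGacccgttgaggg
Gla, chrX:134601215-134601244, minus strand: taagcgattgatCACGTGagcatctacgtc
Mcoln1, chr8:3500462-3500491, plus strand: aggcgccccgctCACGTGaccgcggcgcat
Lamp1, chr8:13159134-13159163, plus strand: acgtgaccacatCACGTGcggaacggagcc

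As a group the lysosomal genes read higher in the mutants, and the proteases stood highest among them. Signals are on the linear scale of the deposited values, and a log2 ratio is the mean over the 2 mutant arrays of log2(signal + 31.92) minus that of the normal array. Each gene was represented by its brightest probe set, and the filter on dim probe sets, which corresponds to a signal of about 90.4, kept 33 of the 34 measured genes. The lowest normal signal among these 33 brightest probe sets was 122 (Naglu), so none of them was kept through the mutant arrays alone. Dimmer kept probe sets of Ctsb (62.1), Npc2 (71.7) and Galns (87.9) had normal signals under the limit and were kept through their mutant signals. Of the 33, 24 were higher on both mutant arrays (72.7%, against 36.5% of all 12913 kept genes), 6 were lower on both (against 39.1% of all kept genes) and 3 had opposite signs on the mutant arrays. The members had a median log2 ratio of 0.53 (0.36 on mutant array 1 and 0.61 on mutant array 2), against -0.02 for all kept genes. With the mean of each gene's probe sets in place of the brightest, the members' median was 0.35. The gap between the mutant arrays had a median of 0.18 over the members and 0.21 over all kept genes.

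Limma, with Benjamini-Hochberg adjustment over all 27022 kept probe sets, called 9 of the 62 kept member probe sets higher (14.5%) and 0 lower, at an adjusted p under 0.05. The background was 0.548% of all kept probe sets called higher and 0.0296% called lower. At an unadjusted p under 0.05, limma had 20 member probe sets higher and 1 lower, against 6.70% and 6.86% of all kept probe sets. The 20 include the Ctsb probe set that was kept through its mutant signals. By gene, 7 of 33 members rose (21.2%, against 0.728% of all kept genes, with 0.0310% lower). At an unadjusted p under 0.05, 13 were higher (8.01% of all kept genes) and 1 was lower (4.24% of all kept genes). At least 2-fold higher on both mutant arrays were 9 members (27.3%, against 3.24%), and none was at least 2-fold lower on both (against 0.635%). The fit had 1 residual degree of freedom, and the normal array, which has no replicate, was taken to vary as the mutant arrays do. Without the filter on dim probe sets, or without a trend of variance on signal, no member probe set and no other probe set passed. At an unadjusted p under 0.05, limma then had 25 of 78 member probe sets higher and 3 lower without the filter, against 5.38% and 5.44% of all 45037 probe sets. Without the trend it had 16 of 62 higher and 0 lower, against 6.07% and 6.71% of all kept probe sets.

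**Figure D1:**
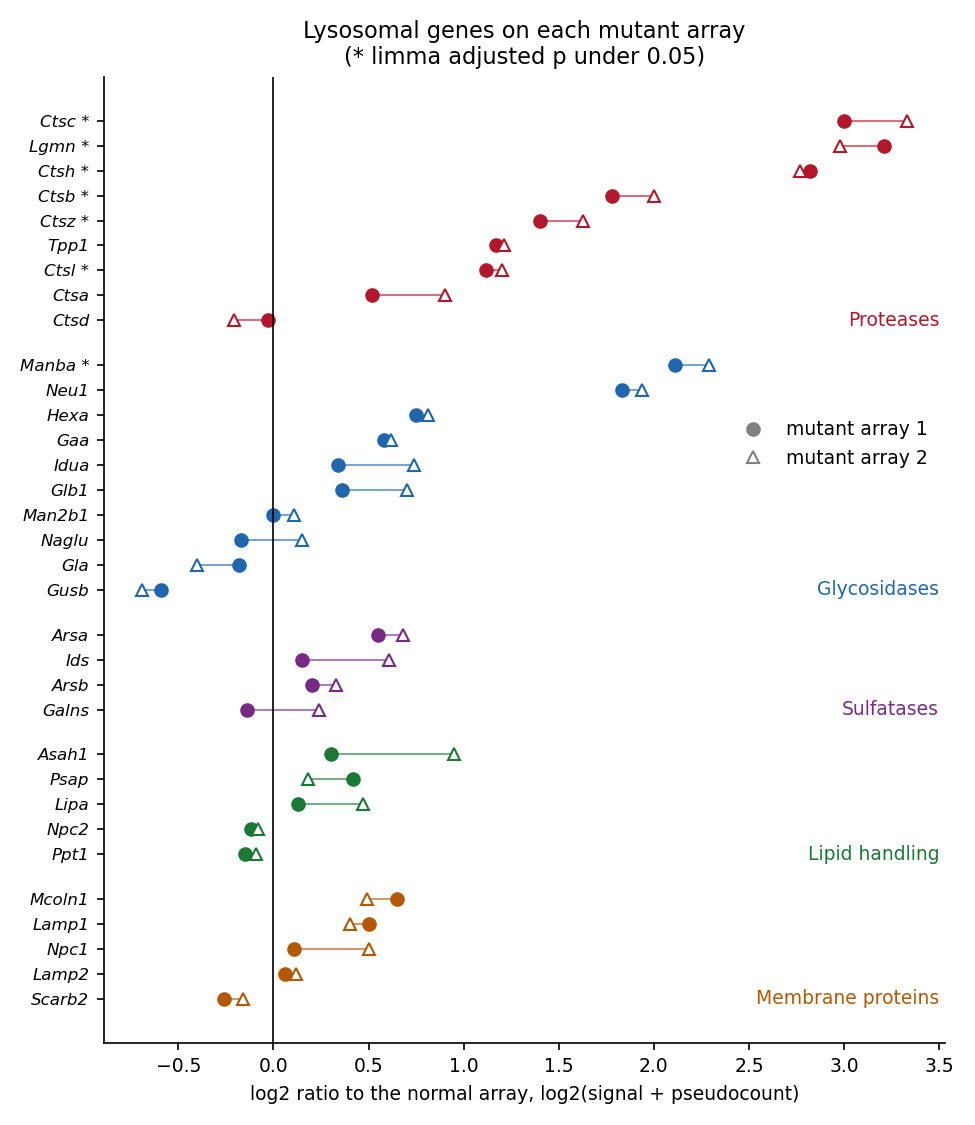
Log2 ratio of each mutant array to the normal array (x axis, log2(signal + 31.92)) for the 33 kept lysosomal genes, ordered within 5 classes; filled circles are mutant array 1, open triangles mutant array 2, and asterisks mark the 7 genes that passed limma. The proteases Ctsc, Lgmn and Ctsh lie furthest right, and the sulfatases, lipid-handling and membrane proteins all lie below 1.

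The lysosomal proteases held 6 of the 7 genes that rose. Their median log2 ratio was 1.52 over 9 kept genes, 8 of which were higher on both mutant arrays. Ctsc encodes dipeptidyl peptidase I, which removes dipeptides from protein ends and activates serine proteases. Its signal was 743 on the normal array against 6155 and 7755 on the mutant arrays, a log2 ratio of 3.16 (SE 0.21, limma adjusted p = 0.0137). Both mutant signals lay far above the normal one, with a mean of 6955 ± 1131 (SD, n = 2). Lgmn encodes legumain, an asparaginyl endopeptidase that also processes other cathepsins. It read 927 on the normal array against 8836 and 7519 on the mutant arrays, a log2 ratio of 3.09 (SE 0.19, limma adjusted p = 0.0111). Ctsh, an aminopeptidase, read 731 on the normal array against 5361 and 5165 on the mutant arrays, a log2 ratio of 2.80 (SE 0.18, limma adjusted p = 0.0124). The mutant arrays differed by less for Ctsh than for Ctsc or Lgmn, and for all 3 genes the rise was between 6.94-fold and 8.96-fold on the log2(signal + 31.92) scale.

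The other cathepsins that rose had smaller log2 ratios on their brightest probe sets. Ctsb, which acts as an endopeptidase and as a carboxydipeptidase, read 2639 on the normal array against 9144 and 10649 on the mutant arrays (log2 ratio 1.89, SE 0.17, limma adjusted p = 0.0269). Ctsz, a carboxypeptidase, read 2942 on the normal array against 7843 and 9159 on the mutant arrays (log2 ratio 1.52, SE 0.18, limma adjusted p = 0.0436). Ctsl, an endopeptidase, read 6068 on the normal array against 13235 and 13988 on the mutant arrays (log2 ratio 1.16, SE 0.14, limma adjusted p = 0.0498). In each case both mutant signals lay above the normal one by more than they differed from each other. The Ctsl call was the closest to the threshold. It was lost with a doubled pseudocount (limma adjusted p = 0.0513), median centring (0.0565), quantile normalization (0.0512) and the mean of probe sets (log2 ratio 0.32, limma adjusted p = 0.709). The Ctsz call was also lost with quantile normalization (limma adjusted p = 0.0546).

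Among the members, the 5 kept cysteine cathepsins of the papain family (Ctsb, Ctsc, Ctsh, Ctsl and Ctsz) all rose. Legumain, a cysteine protease of another family, also rose, while member proteases with other catalytic residues did not pass. This grouping was made after the values were seen and has no test. Outside the members, the papain-family cathepsin Ctso was kept and did not pass (log2 ratio 1.01, limma adjusted p = 0.266). Ctsf (-0.31) and Ctsk (-0.28), of the same family, were removed by the filter on dim probe sets. Tpp1, a serine tripeptidyl peptidase, read 1774 on the normal array against 4045 and 4145 on the mutant arrays (log2 ratio 1.19, SE 0.18, limma adjusted p = 0.0779). Ctsa, a serine carboxypeptidase, read 1159.8 on the normal array against 1676 and 2186 on the mutant arrays (log2 ratio 0.71, SE 0.25, limma adjusted p = 0.318). Ctsd, the aspartic protease of the group, read 2639 on the normal array against 2587 and 2284 on the mutant arrays (log2 ratio -0.12, SE 0.20, limma adjusted p = 0.842). The Ctsd signals lay within a narrow range, while those of Tpp1 and Ctsa were higher on both mutant arrays. Ctss, a papain-family cathepsin typical of antigen-presenting cells, was the member removed by the filter. It read 74.8 on the normal array against 10.3 and 21.6 on the mutant arrays, and it has no test.

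**Figure D2:**
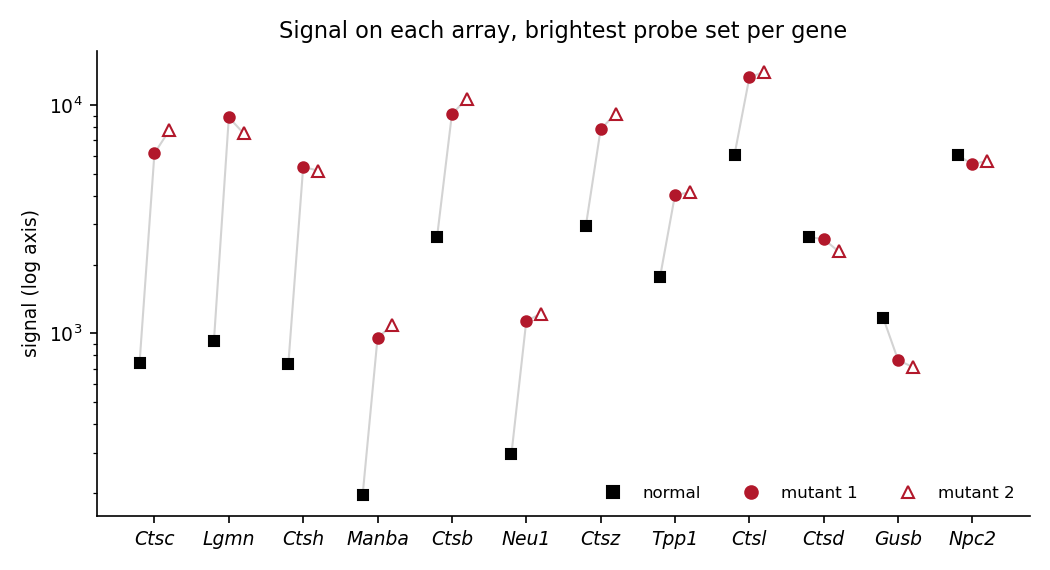
Signal (y axis, log scale) of the brightest probe set on the normal array (black squares) and on mutant arrays 1 (red circles) and 2 (open triangles), for the 9 members at least 2-fold higher on both mutant arrays and for Ctsd, Gusb and Npc2. The mutant signals of the 9 genes lie together above the normal one, whereas Ctsd and Npc2 stay near it and Gusb lies below.

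Glycosidases, which remove sugars from glycoproteins, glycolipids and glycosaminoglycans, were less uniform. Of 10 kept genes, 6 were higher on both mutant arrays, 2 were lower on both and 1 rose, with a median log2 ratio of 0.54. Manba, the beta-mannosidase that acts late in glycoprotein breakdown, read 197 on the normal array against 956 and 1085 on the mutant arrays (log2 ratio 2.20, SE 0.25, limma adjusted p = 0.0436). Man2b1, the alpha-mannosidase of the same pathway, read 859 on the normal array against 856 and 929 on the mutant arrays (log2 ratio 0.05, SE 0.23, limma adjusted p = 0.943). The Man2b1 signals barely differed, whereas both mutant signals of Manba lay above the normal one by more than they differed from each other. Neu1, a sialidase, read 295 on the normal array against 1133 and 1219 on the mutant arrays (log2 ratio 1.88, SE 0.24, limma adjusted p = 0.0555). Neu1 narrowly missed the threshold, and it passed with the 60th percentile filter (limma adjusted p = 0.0488) and with median centring (0.0294). It did not pass under the other alternatives that have a test. With the mean of probe sets its log2 ratio was 1.14 (limma adjusted p = 0.109). The Neu1 protein is kept stable in a complex with the products of Ctsa and Glb1. The beta-galactosidase gene Glb1 read 419 on the normal array against 547 and 703 on the mutant arrays, so the 3 partners had log2 ratios of 1.88, 0.71 and 0.53, and none of them passed.

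The remaining glycosidases did not pass. Hexa, a beta-hexosaminidase subunit that acts on gangliosides, read 1408 on the normal array against 2396 and 2489 on the mutant arrays (log2 ratio 0.78, SE 0.20, limma adjusted p = 0.203). Gaa, which degrades glycogen, had a log2 ratio of 0.60, and Idua, which acts on dermatan and heparan sulfate, had 0.54. Naglu, which acts on heparan sulfate, had a log2 ratio of -0.01 and was positive under median centring, quantile normalization and cyclic loess. Gusb, the beta-glucuronidase gene, stood lowest among the 33 kept members at 1167 on the normal array against 763 and 711 on the mutant arrays (log2 ratio -0.64, SE 0.23, limma adjusted p = 0.333). Its mutant signals lay close together and below the normal one. Gla, the alpha-galactosidase that clears globotriaosylceramide, read 468 on the normal array against 411 and 347 on the mutant arrays, a log2 ratio of -0.29 (SE 0.28, limma adjusted p = 0.703).

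No gene passed among the sulfatases, the lipid-handling proteins or the membrane proteins. The sulfatases, which remove sulfate groups from glycosaminoglycans and sulfatide, centred on a log2 ratio of 0.32 (the median of 4 genes). Arsa, which acts on sulfatide, read 465 on the normal array against 697 and 767 on the mutant arrays (log2 ratio 0.62, SE 0.25, limma adjusted p = 0.370). Ids had a log2 ratio of 0.38, Arsb 0.27 and Galns 0.05, and Galns differed in sign between the mutant arrays.

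Among the 5 lipid-handling genes the median was 0.30. Asah1, the acid ceramidase gene, had the widest gap between the mutant arrays of any member, with 1035 on the normal array against 1278 and 2028 on the mutant arrays (log2 ratio 0.62, SE 0.32, limma adjusted p = 0.476). Psap, the precursor of the saposins that present lipids to hydrolases, and the acid lipase gene Lipa each had a log2 ratio of 0.30. Lipa read 739 on the normal array against 812 and 1036 on the mutant arrays (SE 0.26, limma adjusted p = 0.678). Npc2, a soluble protein that hands cholesterol to Npc1, read 6017 on the normal array against 5522 and 5698 on the mutant arrays (log2 ratio -0.10, SE 0.16, limma adjusted p = 0.831). Ppt1, which removes fatty acids from proteins, read 667 on the normal array against 598 and 626 on the mutant arrays (log2 ratio -0.12, SE 0.24, limma adjusted p = 0.871). Both genes read within a narrow range on all arrays.

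The membrane proteins had a median of 0.31 over 5 genes. Mcoln1, a cation channel of the lysosomal membrane, read 711 on the normal array against 1137 and 1009 on the mutant arrays (log2 ratio 0.57, SE 0.23, limma adjusted p = 0.377). Lamp1, an abundant glycoprotein that lines the membrane, read 7598 on the normal array against 10751 and 10054 on the mutant arrays (log2 ratio 0.45, SE 0.15, limma adjusted p = 0.290). Both stood higher on each mutant array without passing. The cholesterol exporter gene Npc1 had a log2 ratio of 0.31. Scarb2, which carries glucocerebrosidase to lysosomes, read 952 on the normal array against 787 and 848 on the mutant arrays (log2 ratio -0.21, SE 0.23, limma adjusted p = 0.743).

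Several members were measured by more than 1 probe set, which gives a second reading on the same arrays rather than another sample. Of the 20 genes with more than 1 kept probe set, 5 had probe sets of opposite sign at 2 decimals. Arsb is not among them, since its dimmer kept probe set rounded to 0. That probe set read 115.5 on the normal array against 114.96 and 115.08 on the mutant arrays, slightly lower. The 4 kept Ctsb probe sets had log2 ratios from 0.61 to 2.61, and 2 of them passed. One that did not pass, at 2.25, was kept through its mutant signals. Both Ctsh probe sets passed, at 2.80 and 2.69, and the 3 Ctsz probe sets ranged from 1.27 to 1.52. These readings agree in direction for each of the 3 genes.

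Other genes had readings that parted. On the dimmer Ctsl probe set the signals were 178 in the normal pool and 211 and 55.3 in the mutant pools, a log2 ratio of -0.53 (SE 0.64), so its mutant arrays lay on both sides of the normal one. The brightest Lamp2 probe set had a log2 ratio of 0.09 and the 3 others 0.63, 0.82 and 1.11, none of which passed. Lamp2 is a membrane glycoprotein with several splice forms, and which form each probe set reads was not analysed here. A dimmer Neu1 probe set read 0.40, and a dimmer Tpp1 probe set 0.56. The probe sets of Lipa ranged from -0.47 to 0.30, those of Mcoln1 from -0.25 to 0.57, those of Ppt1 from -0.28 to 0.08 and those of Npc2 from -0.10 to 0.57. None of these values for Lipa, Mcoln1, Ppt1 or Npc2 passed.

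**Figure D3:**
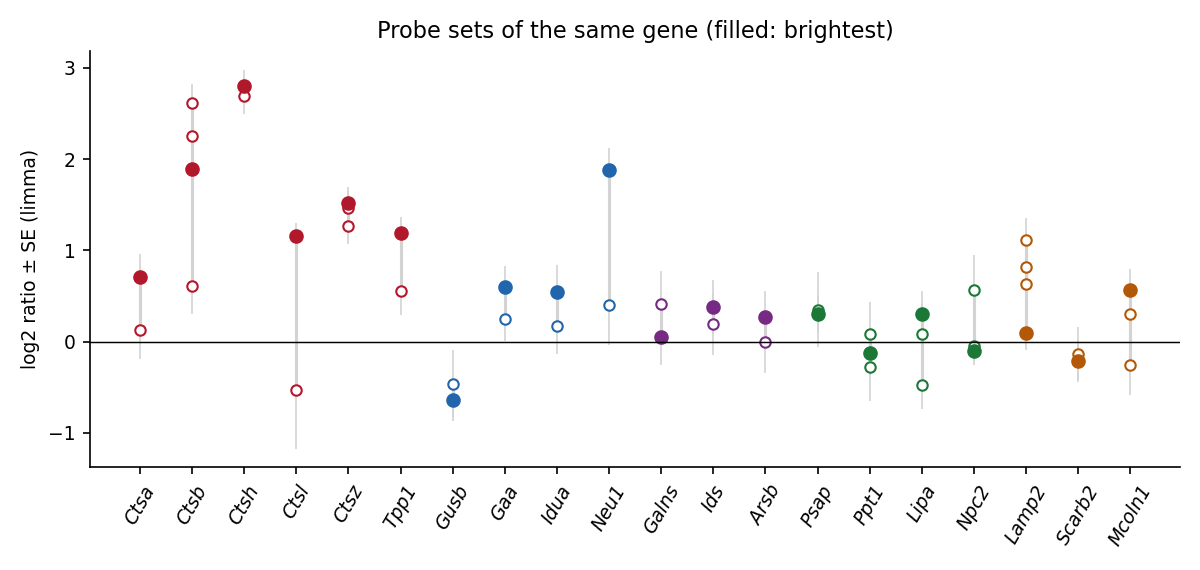
Log2 ratio of mutant to normal with its limma SE (y axis) for each kept probe set of the 20 members with more than 1, filled for the brightest probe set of the gene. The Ctsb, Ctsh and Ctsz probe sets all lie above 0.5, while those of Ctsl and Lipa lie on both sides of 0.

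Members with and without the E-box letters overlapped in their changes. Over all kept genes, with or without a window, 0.728% were called higher. The 11 genes with the core in a window had a median log2 ratio of 0.57 (range -0.29 to 3.09), and 2 of them, Lgmn and Ctsl, had passed. The 17 kept genes whose windows lacked it had a median of 0.30 (range -0.64 to 3.16), and 3 of them, Ctsc, Ctsz and Manba, had passed. Ctsb (1.89) and Ctsh (2.80), which also rose, had no window and are in neither group. Ctsd and Gla, which hold the longer form, read -0.12 and -0.29. The Lgmn core lay in 1 of that gene's windows. These shares describe letters in a window, and whether any factor bound there was not tested.

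**Figure D4:**
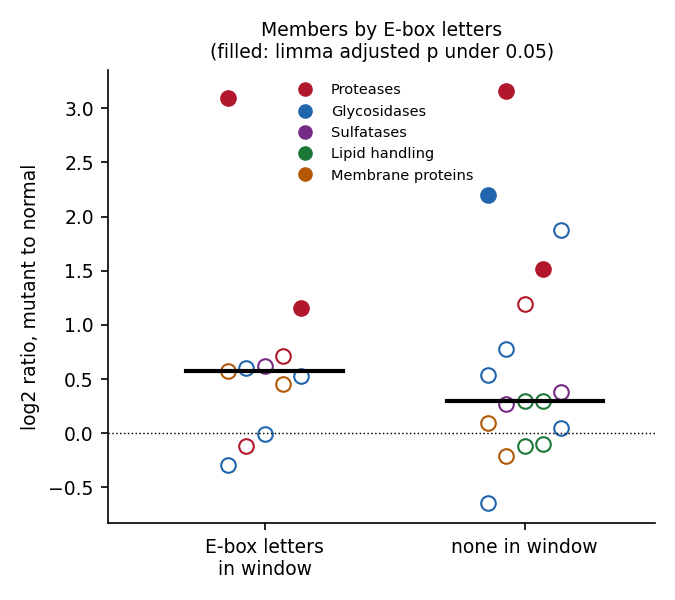
Log2 ratio of mutant to normal (y axis) for the 28 kept members with a promoter window, split by whether a window holds CACGTG and coloured by class; filled points passed limma and bars are medians (0.57 and 0.30). The ranges of the 2 groups overlap, and each holds genes that passed.

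The other parts of the lysosome system were described by lists of names. A list of 36 further lysosomal proteins had 29 kept genes with a median log2 ratio of 0.32. Of the 29, 19 were higher on both mutant arrays (65.5%, against 36.5% of all kept genes) and 5 lower on both (against 39.1%). On their brightest probe sets 1 of these genes rose and none fell, against 0.728% and 0.0310% of all kept genes. The gene that rose was Acp5, an acid phosphatase that resists tartrate, with 130.0 on the normal array against 821 and 858 on the mutant arrays (log2 ratio 2.43, SE 0.26, limma adjusted p = 0.0362). Cd68, a lysosomal glycoprotein abundant in macrophages, read 0.13.

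The vacuolar ATPase, the pump that acidifies the lysosome, had 16 kept subunit and accessory genes with a median log2 ratio of 0.36. Of these, 13 were higher on both mutant arrays (81.2%, against 36.5% of all kept genes). None was lower on both (against 39.1%), and none passed. The nearest to the threshold were Atp6v0a1, with 334 on the normal array against 1187 and 1167 on the mutant arrays (log2 ratio 1.72, SE 0.23, limma adjusted p = 0.0610), and Atp6v1a, a catalytic subunit, at 1.41 (SE 0.21, limma adjusted p = 0.0760). Atp6v0b (0.82) and Atp6v0d1 (0.68) were next by the smaller of their mutant ratios.

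Among 19 kept genes that sort enzymes to lysosomes the median log2 ratio was 0.17. Of the 19, 12 were higher on both mutant arrays (63.2%, against 36.5% of all kept genes) and 3 lower on both (against 39.1%). The one that passed was Igf2r, which encodes the cation-independent mannose 6-phosphate receptor and is an imprinted gene. It fell from 2932 on the normal array to 305 and 338 on the mutant arrays (log2 ratio -3.07, SE 0.24, limma adjusted p = 0.0185). The other mannose 6-phosphate receptor gene, M6pr, read 3340.5 on the normal array against 4074 and 4069 on the mutant arrays (log2 ratio 0.28, SE 0.17, limma adjusted p = 0.542). The mutant signals of M6pr lay slightly above the normal one, and those of Igf2r far below it. Gnptab, a subunit of the enzyme that starts the mannose 6-phosphate tag, had a log2 ratio of 1.28 (SE 0.31, limma adjusted p = 0.197). Vps35, of the retromer complex that recycles sorting receptors, had 0.66 and did not pass.

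Regulators of lysosome synthesis and nutrient sensing (16 kept genes) centred on a log2 ratio of 0.09, and none passed. Tfeb itself read 136 on the normal array against 434 and 294 on the mutant arrays (log2 ratio 1.22, SE 0.34, limma adjusted p = 0.239). The related gene Tfec was removed by the filter, with 16.3 on the normal array against 234 and 220.3 on the mutant arrays. Rragc (0.72), Rraga (0.76), Fnip2 (0.68) and Tfe3 (0.42) did not pass, and Mitf read -0.55. Genes of endocytosis had a median of 1.04 over 9 kept genes. Of these, Cubn (3.24), Amn (3.23) and Dab2 (2.08) rose, against 0.728% of all kept genes called higher. Cubn and Amn form a receptor for protein uptake, and Dab2 is an adaptor for such receptors. The large receptor gene Lrp2 had a log2 ratio of 1.44 and did not pass (limma adjusted p = 0.0793).

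**Figure D5:**
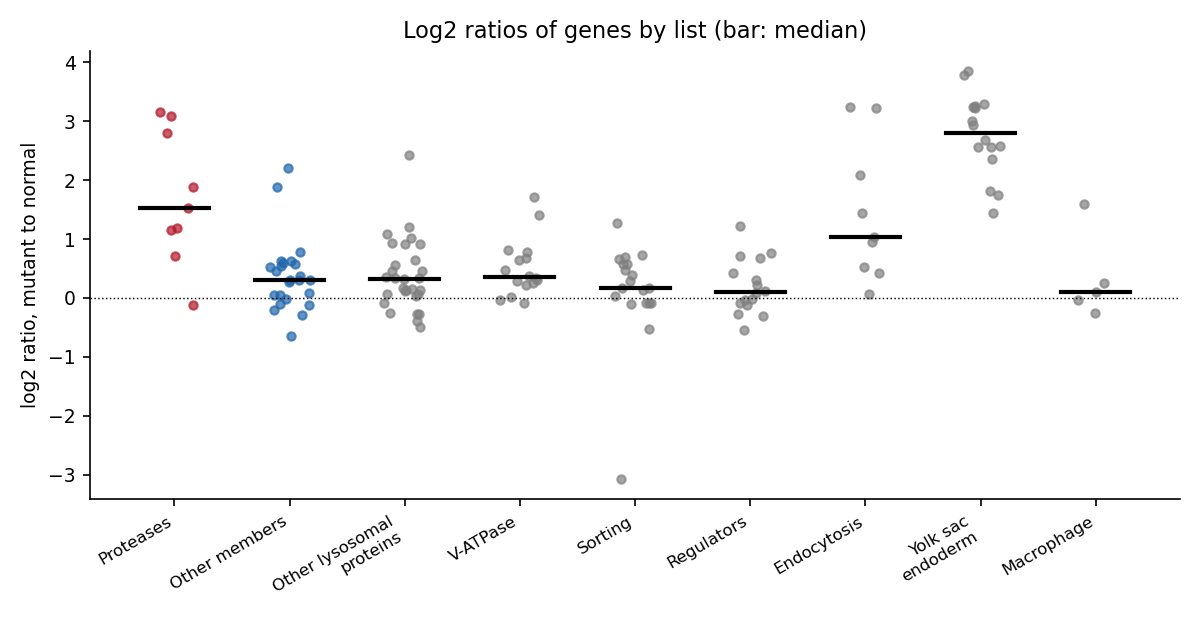
Log2 ratios of mutant to normal (y axis) for kept genes, 1 point a gene, of the member proteases, the other members, the further lysosomal lists, and the yolk sac endoderm and macrophage markers; bars are medians. Yolk sac endoderm markers centre on 2.80, proteases on 1.52 and the other members on 0.30, and the lowest point in the sorting list is Igf2r.

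Markers of tissues that the pools could hold in unequal amounts moved in the same arrays. All 16 kept yolk sac endoderm markers of 17 listed were higher on both mutant arrays (against 36.5% of all kept genes). Of the 16, 14 passed (against 0.728% called higher). The log2 ratios of the 16 ran from 1.44 to 3.85 with a median of 2.80. Their summed signal was 20684 on the normal array against 112208 and 122015 on the mutant arrays. The lipoprotein genes Apob (3.85) and Apoa4 (3.79) were among them. Of the 33 lysosomal members, 7 had log2 ratios inside the range of these markers (Ctsc, Lgmn, Ctsh, Manba, Ctsb, Neu1 and Ctsz), and 26 lay below it. Endocytosis and yolk sac lists share Cubn, Lrp2 and Amn. The part of the yolk sac endoderm markers in the rise of the lysosomal genes was not tested.

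Macrophages also express cathepsins strongly. Of 12 macrophage markers, 7 were removed by the filter on dim probe sets, among them C1qa, C1qc, Aif1 and Ptprc, whose signals ran from 4.07 to 84.8, and Cx3cr1, with 12.9 on the normal array and 127 and 35.4 on the mutant arrays. The 5 kept had a median log2 ratio of 0.10, and none passed. Mrc1, a mannose receptor that other cell types also express, read 149 on the normal array against 477 and 564 on the mutant arrays. Its log2 ratio was 1.60 (limma adjusted p = 0.107), and that of Csf1r was 0.10. The summed signal of all 12 macrophage markers, with the 7 removed ones included, was 1234 on the normal array against 1563 and 1789 on the mutant arrays. Of these sums Mrc1 made up 149, 477 and 564, the largest rise of any marker in the list. The part of macrophages in the lysosomal values was not tested.

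The remaining marker lists gave smaller shifts than the yolk sac endoderm in median. Erythroid markers had a median of 1.66 over 9 kept genes. All 9 were higher on both mutant arrays (against 36.5% of all kept genes), and Hba-x and Slc4a1 rose. The erythroid log2 ratios ran from 0.62 to 2.43, a range that also holds lysosomal members. Among these were Manba, Ctsb, Neu1, Ctsz, Tpp1, Ctsl, Hexa and Ctsa, while Ctsc, Lgmn and Ctsh lay above it. Trophoblast markers had 1.35 over 5 kept genes of 8 measured, and Esx1 rose. Of those removed by the filter, Tpbpa read 180 on the normal array against 32.8 and 23.3 on the mutant arrays (log2 ratio -1.83). Ascl2 (-0.09) and Elf5 (1.02) were also removed, and these genes have no test. Parietal endoderm markers had 0.58 over 8 genes, and none passed. Decidual markers had -0.25 over 8 kept genes, with 4 lower on both mutant arrays and 2 higher on both. Prl8a2 fell, while Lum (1.57) and Wnt4 (0.40) were the 2 higher ones and did not pass. The summed signal of the 9 decidual markers was 3744 on the normal array against 2240 and 4481 on the mutant arrays, which lay on both sides of it. Cardiac markers had -0.88 over 10 genes, neural markers -0.85 over 8 kept genes and somite markers -0.67 over 10 genes, and none of these passed. The part of these tissues in the lysosomal values was not tested.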

How the data were processed

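RNA of pooled whole embryos was extracted with Trizol and labelled with biotin for Affymetrix arrays, per the labels' protocols. The deposited file holds linear intensity values, 1 per probe set and array. GCOS and MAS5 are the tools in the submitters' processing notes. All arrays had been brought to a common level, since their mean was 500 once the lowest and highest 2% of values were removed, so a shift in tissue makeup can move other genes the opposite way. Median signals were 143.6 on the normal array and 130 and 139.6 on the mutant arrays. Of 45101 probe sets, 64 controls were left out. Of the 45037 others, 34945 had 1 gene symbol in the platform annotation, 932 had several and 9160 were not listed, and no gene was named from the last 2 kinds.

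A pseudocount of 31.92 was added, taken as the median of the 3 arrays' 20th percentiles. Probe sets at or above the 40th percentile of mean log2 signal were kept (27022). Limma (version 3.58.1, R 4.3.3, lmFit, eBayes with trend, 4.52 prior degrees of freedom) was fitted across all of them, two-sided, with Benjamini-Hochberg adjustment. The fit was also run on simulated data in which all 3 arrays varied alike, which cannot show how the normal pool varies. A gene is said to rise or fall where its adjusted p was under 0.05. SEs and p-values combine the spread between the 2 mutant pools with a variance trend over all kept probe sets. The trend carries more weight, with 4.52 prior against 1 residual degree of freedom. They are thus not a measure of the spread between replicates alone, and they cannot show whether the normal pool was typical.

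The members, lists and tests were chosen with earlier results of these data known. Every member is named. Signals and errors are given at least for members that passed, that changed 2-fold on both arrays or that lay at the ends of the range. They are also given for members whose brightest and other probe sets disagreed in sign at 2 decimals. Some others with signals and errors were chosen after their values were seen. From each other lysosomal list, genes that passed or up to 4 others are named. Other genes with values were chosen after their values were seen. Promoter windows are RefSeq's, matched by symbol. Alternatives were other pseudocounts, filters, array scalings, a variance model without trend, the mean of probe sets and each mutant array left out.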

Additional observations from a re-analysis of the deposited data

How the results depend on the processing

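The number of member probe sets that passed was 9 and fell to 0 without the filter on dim probe sets (at an unadjusted p under 0.05 in limma, 25 member probe sets higher and 3 lower, against 5.38% and 5.44% of all probe sets) and to 0 without a trend of variance on signal (16 and 0, against 6.07% and 6.71%). The lowest member adjusted p was then 0.0766 and 0.114. It was 7 to 11 under the other pseudocounts, filters and scalings. The number of member genes higher on both mutant arrays stayed between 24 and 25 under the pseudocounts, filters, scalings and the mean of probe sets. With 1 mutant array left out, 24 to 27 were higher and the median log2 ratio was 0.36 to 0.61, with no test. The members' median moved from 0.53 to 0.35 with the mean of probe sets. Of 296 tested values of single members under the alternatives, 270 kept their direction and their side of the threshold, 19 lost the call and 2 gained it. The 5 of these that changed sign were all from genes that did not pass: Naglu (0.07 under median centring, 0.06 under quantile normalization and 0.08 under cyclic loess), Lipa (-0.03) and Npc2 (0.14) with the mean of probe sets. Of the 66 values with 1 mutant array left out, which have no test, 3 changed sign: Naglu (0.15 without mutant 1), Galns (-0.14 without mutant 2) and Man2b1 (below 0.01 in size without mutant 2). The cause was not tested. No paired analysis was possible because the normal group has 1 array. Depth is not defined for arrays, and the number of arrays limits the precision.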
